A study of Mus musculus with 7 samples.

Results

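The interleukin-6 family of cytokines and receptors was followed in macrophages of the regenerating sciatic nerve. The 8 genes were chosen by name from the 23361 genes quantified in each library: the ligands Il6, Osm, Lif and Il11, and the receptor chains Il6ra, Il6st, Lifr and Osmr. RNASeq was performed on macrophages from wild-type mice of the inbred strain BALB/cJ whose left sciatic nerve had been cut and sutured into an empty conduit. The tissue bridge within the conduit was digested at day 5, 14 or 28 after repair, and cells of the phenotype Lin-F4/80+CD14+CD11b+CD16/32+ were sorted. Among others, cells with Thy1.2, a marker of fibroblasts, and with markers of granulocytes, eosinophils, lymphocytes and red blood cells were left out by the sort. Libraries were made from polyA+ RNA, with 3 samples for day 5 and 2 each for days 14 and 28. The labels describe them as independent biological replicates, and whether 1 library holds 1 mouse or a pool was not given in the sources used here. All groups carried the injury and the conduit, and no uninjured nerve was sequenced in these 7 libraries.

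Cytokines of this family share the signalling chain gp130, encoded by Il6st. IL-6 and IL-11 first bind their own alpha chains, which then recruit gp130, whereas LIF signals through gp130 paired with the LIF receptor, and oncostatin M, in the mouse, mainly through gp130 paired with its own receptor chain. Signal passes through JAK kinases to STAT3, and SOCS3 limits it. Injured peripheral nerve is known for local production of IL-6 and LIF, and macrophages are known producers of IL-6 and oncostatin M.

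On the mm10 (GRCm38) assembly with GENCODE gene models, Il6 lies on chromosome 5 from 30013114 to 30019981 on the plus strand, Il6ra on chromosome 3 from 89864059 to 89913196 on the minus strand, and Il6st on chromosome 13 from 112464070 to 112510086 on the plus strand. Osm (chromosome 11, 4236420 to 4241026, plus strand) and Lif (chromosome 11, 4257557 to 4272514, plus strand) are direct neighbours, 16.5 kb apart with 0 protein-coding genes between them. Lifr (chromosome 15, 7090614 to 7197489, plus strand) and Osmr (chromosome 15, 6813577 to 6874969, minus strand) are likewise neighbours, 216 kb apart with 0 protein-coding genes between them. Il11 lies on chromosome 7 from 4772373 to 4782859 on the minus strand.

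Il6 and Lifr were the members that passed the test in any comparison, so the 250 bases before their RefSeq start sites (GRCm38.p6) are shown. Both strands were searched for AP-1 (TGANTCA), NF-kB (GGG, any 2 bases, then TTTCC), C/EBP (TTGNNCAA), STAT (TTCNNNGAA) and Sp1 (GGGCGG) letters, and matches are in capitals. The Il6 window is chr5:30012864-30013113 on the plus strand. Lifr has 2 RefSeq start sites in the table, with windows chr15:7129322-7129571 and chr15:7140292-7140541 on the plus strand, both within the GENCODE span of the gene.
Il6: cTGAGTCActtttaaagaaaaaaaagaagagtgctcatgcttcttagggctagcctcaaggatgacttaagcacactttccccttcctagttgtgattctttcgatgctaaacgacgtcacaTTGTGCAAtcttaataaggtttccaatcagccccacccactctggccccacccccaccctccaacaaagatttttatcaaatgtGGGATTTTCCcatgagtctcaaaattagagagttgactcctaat
Lifr, upstream start: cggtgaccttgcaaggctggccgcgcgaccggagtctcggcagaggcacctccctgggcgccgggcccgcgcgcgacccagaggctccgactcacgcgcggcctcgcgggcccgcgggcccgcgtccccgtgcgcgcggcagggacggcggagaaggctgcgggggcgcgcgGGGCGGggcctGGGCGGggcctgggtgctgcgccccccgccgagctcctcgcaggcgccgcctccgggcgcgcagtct
Lifr, downstream start: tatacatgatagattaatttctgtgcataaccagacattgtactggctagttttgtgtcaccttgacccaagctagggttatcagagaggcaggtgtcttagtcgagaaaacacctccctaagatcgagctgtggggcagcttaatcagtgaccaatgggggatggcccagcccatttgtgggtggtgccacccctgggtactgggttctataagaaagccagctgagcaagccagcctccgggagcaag
The Il6 window held an AP-1 match 249 to 243 bases before the start, a C/EBP match at 128 to 121 and an NF-kB match at 44 to 35. In 32851 mouse promoter windows of the same length, these letters occurred in 6.75%, 5.65% and 1.41% of windows. The upstream Lifr window had a GC content of 82.4% and held a pair of Sp1 matches, 78 to 73 and 67 to 62 bases before the start, letters found in 32.7% of all windows. The downstream Lifr window had a GC content of 50.8% and 0 matches. The STAT letters, found in 7.02% of all windows, were in none of the windows of the 7 members with a RefSeq entry. The matches in the printed windows did not overlap each other, and a match is a description of the letters only.

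The sorted cells carried macrophage transcripts throughout. All 7 genes of a macrophage list (Emr1, Cd14, Itgam, Fcgr3, Fcgr2b, Csf1r and Cd68) were above the floor of 3 fragments in every library, and their summed level was 5710 to 6190 FPKM at day 5, 4080 to 4790 at day 14 and 3880 to 4320 at day 28. The sort itself selected on the products of Emr1, Cd14, Itgam, Fcgr3 and Fcgr2b, so their presence was set by the gate. Csf1r and Cd68, which were not sort markers, ranged from 406.5 to 493.5 and from 916.5 to 1287 FPKM. FPKM corrects the fragments of a gene for the length of its transcripts and for the depth of the library, so levels can be set beside each other between genes. Fibroblast markers summed to 28.8 to 74.1, 81.2 to 223 and 35.6 to 57.0 FPKM at the 3 time points, endothelial markers to 15.6 to 26.7, 10.5 to 14.4 and 6.03 to 9.70, and neutrophil markers to 312 to 342, 558 to 565 and 137 to 282. Nearly all of the neutrophil sum came from S100a8, S100a9 and Csf3r, with Mpo at most 0.199 FPKM and Elane at 0 in all libraries. From day 5 to day 14 the means of S100a8 and S100a9 rose (107.5 to 189.6 and 152.4 to 314.3 FPKM). That of Csf3r fell from 68.8 to 57.8, and 0 of these genes passed edgeR between these days. Of 7 Schwann cell genes, 1 (Mbp) was above the floor in every library. Mast cell markers reached at most 0.976 FPKM in sum, with Fcer1a at 0, T cell markers 13.8 and B cell markers 10.8. In bulk RNA, fewer cells of a type and less RNA per cell cannot be told apart. The libraries held 18.0 to 35.2 M fragments assigned to genes.

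Osm, which encodes oncostatin M, was the most abundant member at every time point. Its level was 105.7, 120.2 and 126.8 FPKM in the day 5 libraries, 100.8 and 121.1 at day 14, and 95.3 and 107.3 at day 28. The libraries of the 3 time points overlapped, and every library was far above the other 3 ligands. Osm made up 76.1% to 85.4% of the FPKM of the 4 ligands at day 5, 86.7% and 88.1% at day 14, and 85.2% and 78.9% at day 28. The mean level was 118 ± 10.8 FPKM (SD, n = 3), 111 ± 14.3 (n = 2) and 101 ± 8.49 (n = 2). The log2 fold change was -0.07 (SE 0.13) between days 5 and 14, -0.13 (SE 0.15) between days 14 and 28 and -0.20 (SE 0.13) between days 5 and 28, with adjusted p-values of 0.777, 0.763 and 0.336 in the edgeR quasi-likelihood test.

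Il6, the founding cytokine of the family, was lower at day 14 than at day 5. Its level was 16.6, 25.0 and 12.2 FPKM in the day 5 libraries, from 359, 456 and 236 fragments. It was 6.98 and 3.97 FPKM at day 14, from 112 and 79 fragments, and 8.29 and 13.8 at day 28, from 284 and 235 fragments. Both day 14 libraries were below all others, day 28 replicate 1 was below all day 5 libraries, and day 28 replicate 2 lay within their range. The mean fell from 17.9 ± 6.52 FPKM (SD, n = 3) at day 5 to 5.48 ± 2.13 (n = 2) at day 14, and was 11.03 ± 3.88 (n = 2) at day 28. Il6 passed the test between days 5 and 14, with a 3.27-fold lower value at day 14 (log2 fold change -1.71, SE 0.38, edgeR adjusted p = 0.0388). From day 14 to day 28 the 2 groups did not overlap and the log2 fold change was 1.01 (SE 0.40), but the edgeR adjusted p was 0.356. Day 28 against day 5 gave -0.70 (SE 0.35, edgeR adjusted p = 0.205). The share of Il6 in the FPKM of the 4 ligands was 12.4%, 15.8% and 8.18% at day 5, 6.01% and 2.89% at day 14, and 7.41% and 10.1% at day 28.

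The Il6 call was close to the threshold. It was lost with limma on log2(FPKM + 1), where the adjusted p was 0.0554, and in a fit of days 5 and 14 alone, where it was 0.0560. It was also lost when 1 library was left out: the adjusted p in edgeR was 0.101, 0.108 and 0.0676 without day 5 replicates 1, 2 and 3, 0.142 without day 14 replicate 2, and 0.0547 and 0.0576 without day 28 replicates 1 and 2. Without day 14 replicate 1 it was 0.00925. The log2 fold change stayed between -2.15 and -1.35 when 1 library was left out.

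Lif, a ligand that acts on neurons and on many other cells, had a level of 11.9, 12.5 and 9.5 FPKM at day 5, 8.22 and 12.3 at day 14, and 8.22 and 14.8 at day 28. The 3 time points overlapped, and the widest gap between libraries of 1 day was at day 28. The mean level was 11.3 ± 1.58 FPKM (SD, n = 3), 10.2 ± 2.86 (n = 2) and 11.5 ± 4.66 (n = 2). Log2 fold changes were -0.14 (SE 0.25), 0.16 (SE 0.28) and 0.02 (SE 0.25) for the steps from day 5 to 14, day 14 to 28 and day 5 to 28, with edgeR adjusted p-values of 0.785, 0.857 and 0.960.

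Il11, known as a product of stromal cells, was near the detection floor. It received 2, 8 and 4 fragments in the day 5 libraries, 7 and 2 at day 14, and 6 and 6 at day 28, which is 35 fragments in all. Its level was 0.0471 to 0.223 FPKM at day 5, 0.222 and 0.0511 at day 14, and 0.0890 and 0.179 at day 28. Il11 did not pass the expression filter and was not tested. A difference between time points was not detectable at this depth.

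**Figure D1:**
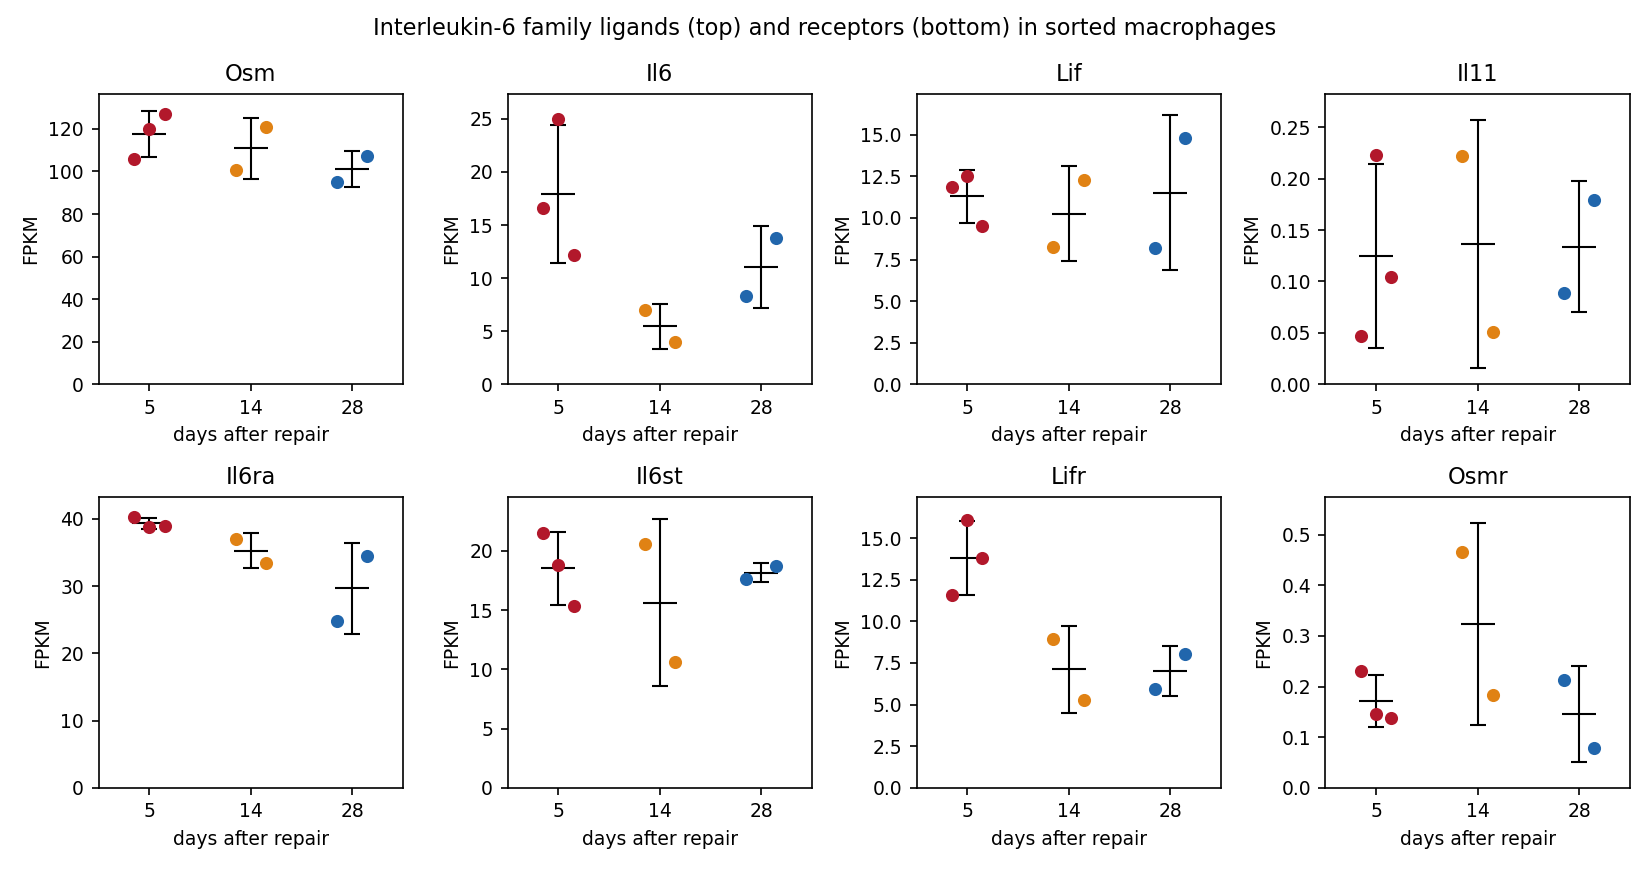
Level in FPKM (vertical axes, each from 0) of the 4 ligands (top row) and the 4 receptor chains (bottom row) by day after repair. Points are libraries, the horizontal bar is the mean and the whiskers are 1 SD (n = 3, 2 and 2). Both day 14 libraries of Il6 and all 4 later libraries of Lifr lie below every day 5 library.

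Il6ra encodes the alpha chain that binds IL-6. Its level was 40.3, 38.7 and 38.9 FPKM at day 5, 37.1 and 33.4 at day 14, and 24.9 and 34.4 at day 28. All 4 later libraries were below the 3 day 5 libraries, while days 14 and 28 overlapped. The mean was 39.3 ± 0.867 FPKM (SD, n = 3), 35.3 ± 2.58 (n = 2) and 29.6 ± 6.78 (n = 2). Il6ra did not pass the test between days 5 and 14 (log2 fold change -0.15, SE 0.14, edgeR adjusted p = 0.560), days 14 and 28 (-0.25, SE 0.15, adjusted p = 0.554) or days 5 and 28 (-0.40, SE 0.14, adjusted p = 0.0906). Without day 28 replicate 2, the library nearer to day 5, the last log2 fold change was -0.65 and passed (edgeR adjusted p = 0.0321).

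Il6st, the gene of gp130, had a level of 21.5, 18.8 and 15.3 FPKM at day 5, 20.6 and 10.6 at day 14, and 17.6 and 18.7 at day 28. Day 14 replicate 2 was below all other libraries, and the time points overlapped. The mean was 18.5 ± 3.08 FPKM (SD, n = 3), 15.6 ± 7.05 (n = 2) and 18.2 ± 0.813 (n = 2). Log2 fold changes were -0.24 (SE 0.24), 0.23 (SE 0.27) and -0.02 (SE 0.24) for the steps from day 5 to 14, day 14 to 28 and day 5 to 28, with edgeR adjusted p-values of 0.587, 0.772 and 0.971. Which day 14 library was kept set the first of these values. Without day 14 replicate 1 the log2 fold change was -0.79 and passed (edgeR adjusted p = 0.0160), and without day 14 replicate 2 it was 0.16. Il6ra was above Il6st in every library, by a ratio of FPKM of 1.88, 2.06 and 2.54 at day 5, 1.8 and 3.14 at day 14, and 1.41 and 1.84 at day 28.

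Lifr, which encodes the LIF receptor chain and is known to yield membrane-bound and soluble forms in the mouse, was lower at both later time points. Its level was 11.6, 16.1 and 13.8 FPKM in the day 5 libraries, 8.95 and 5.28 at day 14, and 5.93 and 8.06 at day 28. All 4 later libraries were below the 3 day 5 libraries, and days 14 and 28 overlapped. The mean fell from 13.8 ± 2.25 FPKM (SD, n = 3) to 7.12 ± 2.59 (n = 2) at day 14 and was 6.995 ± 1.51 (n = 2) at day 28. In edgeR, Lifr was 2.28-fold lower at day 14 than at day 5 (log2 fold change -1.19, SE 0.20, adjusted p = 0.0186) and 2.08-fold lower at day 28 than at day 5 (-1.06, SE 0.20, adjusted p = 0.00915). Between days 14 and 28 the log2 fold change was 0.13 (SE 0.21, edgeR adjusted p = 0.836). The ratio of Lifr to Il6st in FPKM was 0.538, 0.855 and 0.900 at day 5, 0.434 and 0.497 at day 14, and 0.337 and 0.430 at day 28.

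The day 14 call of Lifr was lost without day 5 replicate 1, 2 or 3, with edgeR adjusted p-values of 0.0579, 0.0657 and 0.0676, and with limma on log2(FPKM + 1), where the adjusted p was 0.0760. The day 28 call was lost without day 28 replicate 1 (edgeR adjusted p = 0.0908) or replicate 2 (0.0517). Of 5 endothelial markers, 2 (Pecam1 and Kdr) were lower and 2 (Tek and Vwf) higher at day 28 than at day 5, where 15.2% of all genes tested passed. Tek was below the floor at day 5, with 2, 0 and 0 fragments, and reached at most 0.267 FPKM in any library. Pecam1, an adhesion molecule also found on leukocytes, and Kdr, a VEGF receptor, had log2 fold changes of -1.80 and -3.02 (edgeR adjusted p = 0.0145 and 0.00290). An antibody to CD31, the product of Pecam1, is in the paper's antibody list as an endothelial marker. The paper's text does not name CD31 among the exclusion markers, so whether the sort selected against it is not known. The Pecam1 call was lost without day 28 replicate 2 (edgeR adjusted p = 0.0832), while Kdr kept its call without any 1 library. The Tek call was lost without day 5 replicate 2 or 3 or day 28 replicate 1, and the Vwf call without day 5 replicate 1 or 3 or either day 28 library (edgeR adjusted p = 0.0650 to 0.175 and 0.0610 to 0.148). Cdh5, the defining endothelial cadherin, ranged from 0.768 to 1.82 FPKM and gave -0.09 (edgeR adjusted p = 0.888). Of the 7 macrophage genes, 2 (Cd14 and Emr1) were lower at day 28 than at day 5, 0 were higher and 5 did not pass. The Cd14 call was lost without day 5 replicate 1 or day 28 replicate 1 (edgeR adjusted p = 0.0558 and 0.111) and the Emr1 call without day 28 replicate 1 (0.0667). The part of these genes' cells in the Lifr values was not tested.

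Lifr was also the member for which the deposited scales differed most. Scaled fragments, which are not adjusted for length, were 1935, 2378 and 2138 at day 5, 1174 and 705 at day 14, and 983 and 1068 at day 28. Scaled fragments per FPKM reflect the transcript length that the quantification used for a gene. For Lifr this value was 167, 148 and 155 at day 5, 131 and 134 at day 14, and 166 and 133 at day 28, a spread of 27.7% from lowest to highest. For the other 7 members it varied by at most 2.22%, a value reached by Lif. Between means of days 5 and 14, the log2 ratio for Lifr was -1.19 in scaled fragments and -0.96 in FPKM, and between days 5 and 28 it was -1.07 and -0.98. GENCODE lists 8 Lifr transcripts, 6 of them coding, and the values of single transcripts were not used here.

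**Figure D2:**
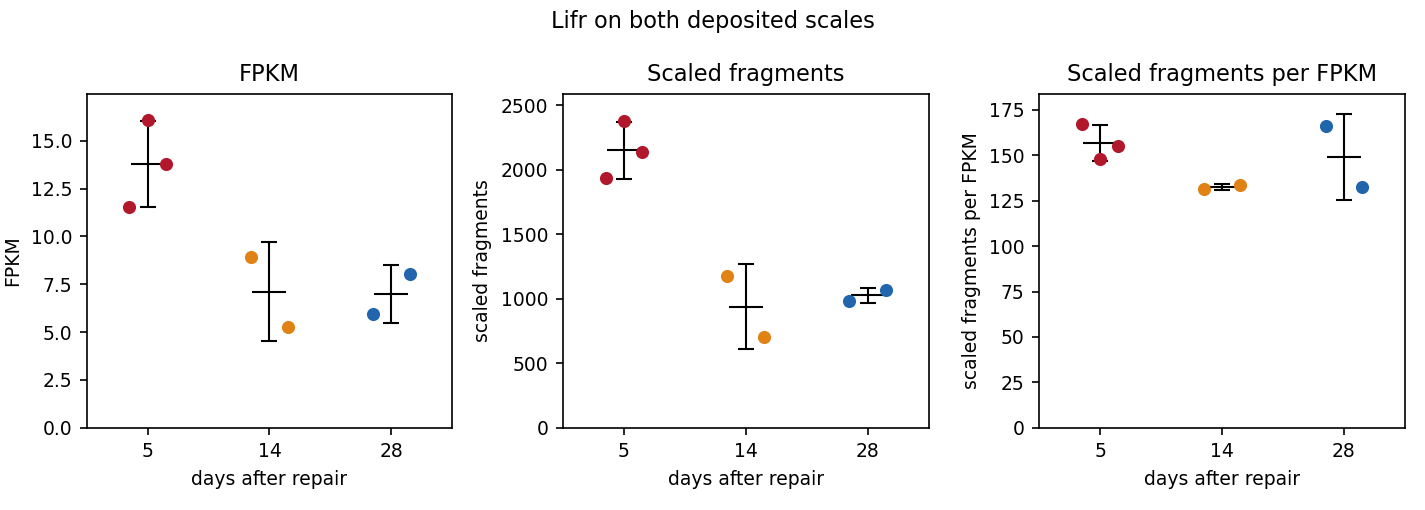
Lifr by day after repair on the FPKM scale (left), as scaled fragments (middle) and as scaled fragments per FPKM (right). Points are libraries, bars are means and whiskers 1 SD (n = 3, 2 and 2). On the left and in the middle, all later libraries lie below day 5, and on the right day 28 replicate 1 (166) lies among the day 5 libraries (148 to 167).

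Osmr, the receptor chain that pairs with gp130 for oncostatin M, was scarce. It received 26, 14 and 14 fragments at day 5, 39 and 19 at day 14, and 38 and 7 at day 28, or 157 in all. Its level was 0.230, 0.147 and 0.138 FPKM at day 5, 0.465 and 0.183 at day 14, and 0.212 and 0.0785 28. Day 14 replicate 1 was above all others, and the time points overlapped. Osmr did not pass the test in any comparison (log2 fold changes of 0.90, -1.08 and -0.18, SE 0.63, 0.70 and 0.65, edgeR adjusted p = 0.422, 0.568 and 0.880). Without day 14 replicate 1, the first 2 of these values were 0.10 and -0.29. Day 14 replicate 1 was also the library with the highest summed fibroblast markers (223 FPKM). Of the 7 fibroblast markers, 1 (Col1a2, a collagen gene) was called between days 5 and 14, with a log2 fold change of 1.86 (edgeR adjusted p = 0.0350), and 6 of 7 had positive values. Between these days 2.84% of all genes tested passed as higher. The Col1a2 call was lost without any 1 day 5 or day 28 library (edgeR adjusted p = 0.0592 to 0.115), and its log2 fold change was 1.02 without day 14 replicate 1. The part of fibroblast RNA in the Osmr values was not tested.

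In order of mean level per length, Osm was first, with Il6ra and then Il6st after it at every time point, and in each day all Osm libraries were above all Il6ra libraries and these above all Il6st libraries. At day 5, Il6st, Il6, Lifr and Lif followed each other with overlapping neighbours (18.5, 17.9, 13.8 and 11.3 FPKM). At day 14 the order below Il6st was Lif, Lifr and Il6, again with overlapping neighbours. At day 28 it was Lif, Il6 and Lifr, where Lif and Il6 overlapped and Il6 and Lifr did not. Osmr and Il11 were last at all 3 time points, overlapped each other and were below every other member. Osm exceeded Il6 by a ratio of 4.81 to 10.4 at day 5, 14.4 and 30.5 at day 14, and 11.5 and 7.79 at day 28.

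Of the 7 members tested, 2 (Il6 and Lifr) passed an adjusted p of 0.05 between days 5 and 14, both lower at day 14, where 4.78% of the 12858 genes tested passed and 1.94% passed as lower. Between days 14 and 28, 0 members passed edgeR (0 with DESeq2 or limma), where 0.0622% of all genes passed. At an unadjusted p under 0.05 there was 1 member (Il6), near the 12.2% of all genes that reached it. Between days 5 and 28, 1 member (Lifr) passed, lower at day 28, where 15.2% of all genes passed and 7.51% passed as lower, so a count of 1 in 7 was near the background of all calls. The median log2 fold change of the tested members was -0.15, 0.13 and -0.20 in the 3 comparisons, against 0.03, 0.01 and 0.03 over all genes tested. The day 5 libraries enter 2 of the comparisons, which are therefore not independent of each other.

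**Figure D3:**
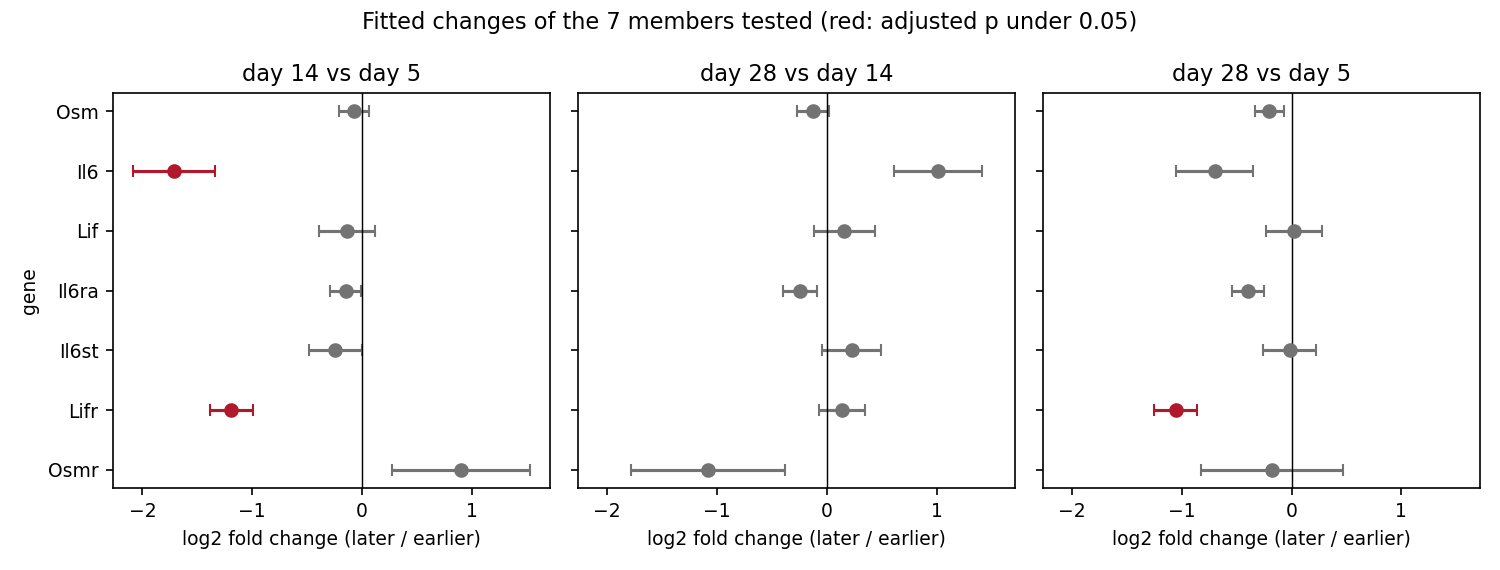
Log2 fold change (horizontal axes, later over earlier time point) of the 7 members tested, in the 3 comparisons, with whiskers of 1 SE from edgeR. Red marks an adjusted p under 0.05: Il6 (-1.71) and Lifr (-1.19) between days 5 and 14, and Lifr (-1.06) between days 5 and 28.

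**Figure D4:**
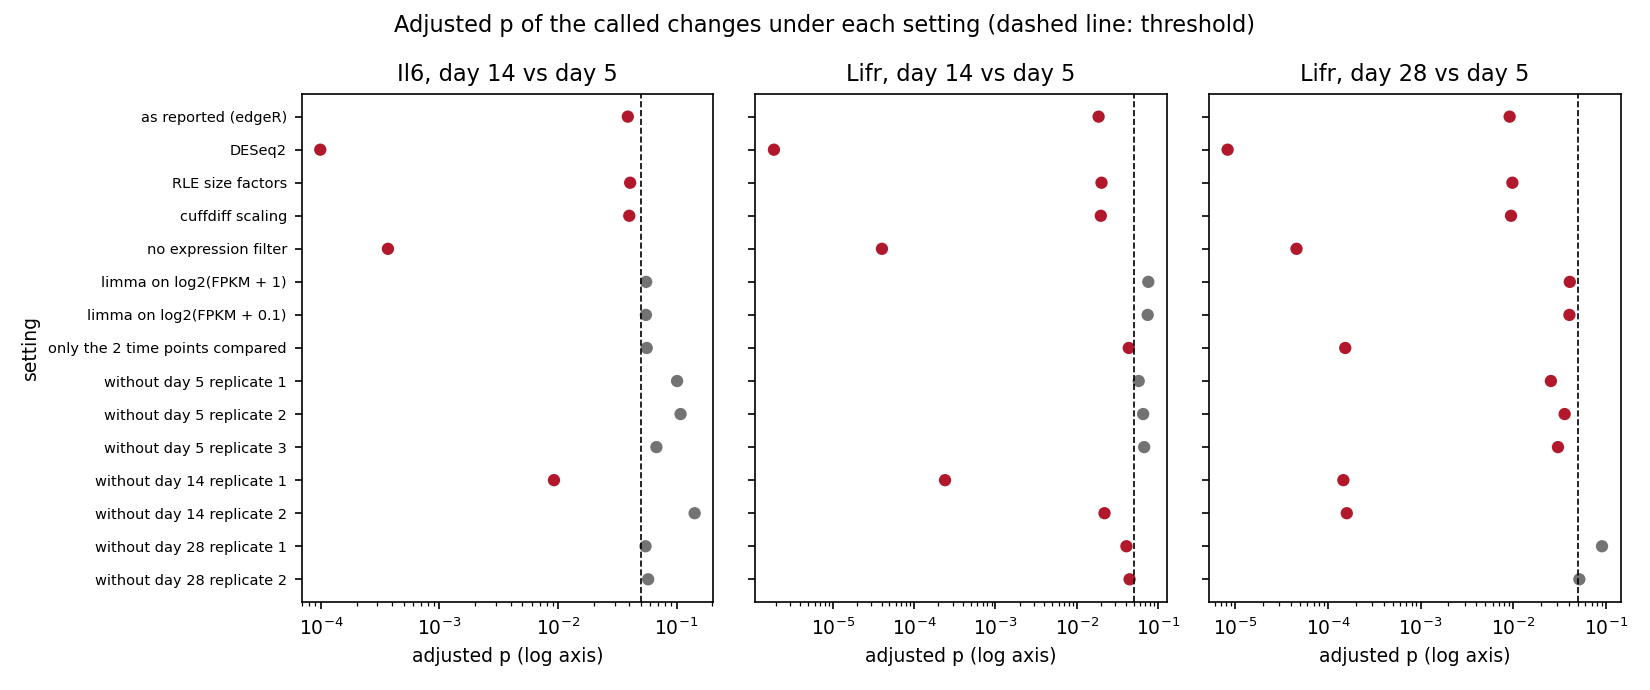
Adjusted p (horizontal axes, log scale) of the 3 called changes under other tests, scalings and filters and without each library. Fits with the replicate number as a block were not drawn. In edgeR they gave 0.0975 for Il6 and for Lifr at day 14 and 0.0518 for Lifr at day 28. With the day 28 numbers swapped they gave 0.0275, 0.0303 and 0.0165. Points left of the dashed line at 0.05 passed. In the settings drawn, Il6 at day 14 ranged up to 0.142, Lifr at day 14 up to 0.0760 and Lifr at day 28 up to 0.0908.

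Genes with the profile over the 7 libraries most like that of a called member were taken by Pearson's r of log2(FPKM + 1) over 10447 genes, as a description. For Il6 they were Birc6 (r = 0.985), with levels of 11.8, 13.5 and 11.5 FPKM at day 5, 9.19 and 7.27 at day 14 and 9.67 and 11.2 at day 28, and Pced1a (r = 0.978). For Lifr they were Wbp7 (r = 0.990) and Ap3d1 (r = 0.990), the latter at 55.9, 58.8 and 56.5 FPKM at day 5, 52.5 and 46.5 at day 14, and 48.1 and 52.1 at day 28. Each r rests on 7 points, in which libraries of 1 day share a time point and each library has 1 depth for all genes.

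The wider gp130 pathway was described with a list of 37 genes, of which 33 passed the expression filter. Between days 5 and 14, 4 of the 33 passed edgeR. The 3 that were higher at day 14 were the receptor genes Il11ra1 and Il27ra and the target Myc, and the 1 that was lower was the acute phase gene Saa3, where 2.84% and 1.94% of all genes tested passed as higher and lower. Between days 5 and 28, 10 of the 33 passed, 4 higher and 6 lower, where 7.74% and 7.51% of all genes did. Between days 14 and 28, 0 of 33 passed edgeR, where 0.0622% of all genes did, 2 passed DESeq2 and 0 limma. At an unadjusted p under 0.05 there were 8 of the 33, against 12.2% of all genes. The median log2 fold change of the 33 genes was -0.17, -0.12 and -0.28 for the steps from day 5 to 14, day 14 to 28 and day 5 to 28.

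Of the other receptor chains, both tested members were higher at the later time points. Against day 5, 2.84% of all genes tested passed as higher at day 14 and 7.74% at day 28. Il11ra1, the alpha chain for IL-11, had a level of 6.76, 6.26 and 5.67 FPKM at day 5, 10.8 and 19.2 at day 14, and 22.2 and 18.2 at day 28. All later libraries were above day 5, and Il11ra1 rose by a log2 fold change of 1.28 (SE 0.23, edgeR adjusted p = 0.0211) to day 14 and 1.71 (SE 0.23, adjusted p = 0.00248) to day 28. The second call held without any 1 library, with an adjusted p of at most 0.0374. The first was lost without day 5 replicate 1, 2 or 3 or day 14 replicate 2 (edgeR adjusted p = 0.0589 to 0.0845), and the log2 fold change was 0.80 without the last. The mouse genome holds close copies of Il11ra1, and how their reads were shared is not given in the sources used here. Il27ra, which pairs with gp130 to bind IL-27, was at 0.317, 1.03 and 0.483 FPKM at day 5, 1.62 and 3.64 at day 14, and 3.84 and 3.87 at day 28. It rose by a log2 fold change of 2.14 (SE 0.47, edgeR adjusted p = 0.0390) to day 14 and of 2.69 (SE 0.47, adjusted p = 0.00712) to day 28. The first call was lost without day 5 replicate 1 or 3, day 14 replicate 2 or either day 28 library (edgeR adjusted p = 0.0695 to 0.188), and was 1.43 without day 14 replicate 2, and the second was lost without day 28 replicate 1 (0.0568). Cntfr and Il31ra did not pass the expression filter and reached at most 8 and 14 fragments in a library.

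Of 6 other ligands, 4 passed the filter, and 2 of these differed between days 5 and 28, where 15.2% of all genes tested passed. Clcf1, a ligand of the ciliary neurotrophic factor receptor, was at 20.2, 22.6 and 12.6 FPKM at day 5, 24.1 and 18.5 at day 14, and 28.5 and 39.6 at day 28. Both day 28 libraries were above all others, and Clcf1 rose by a log2 fold change of 0.89 from day 5 (SE 0.25, edgeR adjusted p = 0.0440). This call was lost without any 1 of the day 5 libraries (edgeR adjusted p = 0.0565 to 0.0965). It was also lost without either day 28 library, where the log2 fold change was 1.11 and 0.64. Ebi3, a subunit of IL-27, was at 48.6, 37.6 and 30.01 FPKM at day 5, 34.1 and 24.02 at day 14, and 13.8 and 19.2 at day 28. It fell by a log2 fold change of 1.23 from day 5 to day 28 (SE 0.24, edgeR adjusted p = 0.0115). The Ebi3 call was lost without day 28 replicate 1, where the log2 fold change was -1.004. Cntf and Il27 did not pass the test, and Ctf1 and Il31 did not pass the filter, with at most 4 and 5 fragments in a library.

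Of 5 signal transduction genes, 1 passed, lower at day 28 than at day 5, where 7.51% of all genes tested passed as lower. Stat3, the main transcription factor downstream of gp130, was at 111, 103 and 98.0 FPKM at day 5, 89.4 and 60.9 at day 14, and 54.9 and 60.2 at day 28, with no overlap between day 5 and the later libraries. Its day 28 call was lost without day 28 replicate 1 (edgeR adjusted p = 0.0976) or replicate 2 (0.0510). Jak1, Jak2, Tyk2 and Ptpn11 did not pass in any comparison, nor did Adam10 and Adam17, proteases that shed the IL-6 receptor.

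Of 4 inhibitors, 1 passed, lower at day 28 than at day 5, where 7.51% of all genes tested passed as lower. Socs3, the feedback inhibitor that binds gp130, was at 940.0, 833 and 553 FPKM at day 5, 882 and 301 at day 14, and 213 and 288 at day 28. Day 14 replicate 1 lay within the day 5 range, and replicate 2 lay just above both day 28 libraries. Socs3 fell by a log2 fold change of 1.62 from day 5 to day 28 (SE 0.41, edgeR adjusted p = 0.0291). The call was lost without day 5 replicate 1 or 2 (edgeR adjusted p = 0.0920 and 0.0770). It was also lost without either day 28 library, where the log2 fold change was -1.415 and -1.85. Socs1, Pias3 and Ptpn2 did not pass.

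Of 12 known targets, Myc was higher and Bcl3, Saa3 and Il4ra were lower at day 28 than at day 5. Over all genes tested, 7.74% passed as higher and 7.51% as lower between these days. Bcl3, a nuclear regulator of NF-kB, was at 118, 117 and 90.4 FPKM at day 5, 118 and 62.8 at day 14, and 43.9 and 56.0 at day 28. It fell by a log2 fold change of 1.11 from day 5 to day 28 (SE 0.25, edgeR adjusted p = 0.0202). The Bcl3 call was lost without day 5 replicate 1 or 2 (edgeR adjusted p = 0.0690 and 0.0636). It was also lost without either day 28 library, where the log2 fold change was -0.9413 and -1.293. Myc, a growth-related transcription factor, was at 9.55, 8.40 and 7.79 FPKM at day 5, 16.8 and 16.6 at day 14, and 11.6 and 20.2 at day 28. It rose by a log2 fold change of 0.97 to day 14 (SE 0.21, edgeR adjusted p = 0.0369) and of 0.90 to day 28 (SE 0.21, adjusted p = 0.0215). The calls were lost without any 1 day 5 library, and without day 14 replicate 2 or day 28 replicate 2 respectively (edgeR adjusted p = 0.0798 to 0.117 and 0.0509 to 0.107), and the day 28 value was 0.45 without day 28 replicate 2. Saa3 was at 3262, 640.1 and 2320.0 FPKM at day 5, 72.2 and 38.4 at day 14, and 21.3 and 20.8 at day 28, and both of its edgeR calls held without any 1 library. Il4ra, the IL-4 receptor chain, ranged from 63.7 to 84.2 FPKM at day 5 and was 88.1 and 41.5 at day 14, and 34.7 and 35.5 at day 28. Its day 28 call was lost without any 1 of the day 5 or day 28 libraries (edgeR adjusted p = 0.0556 to 0.172). The other 8 targets (Junb, Pim1, Cebpb, Cebpd, Mcl1, Timp1, Lcn2 and Hp) did not pass in any comparison. The same held for 4 genes whose products act on Il6 transcript or its transcription (Zc3h12a, Zfp36, Arid5a and Nfkbiz), among which all 4 log2 fold changes between days 5 and 28 were negative (-0.71 to -0.32). Negative values were not particular to these 4: in that comparison 24 of the 33 pathway genes had them. The median over all genes tested was 0.03.

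**Figure D5:**
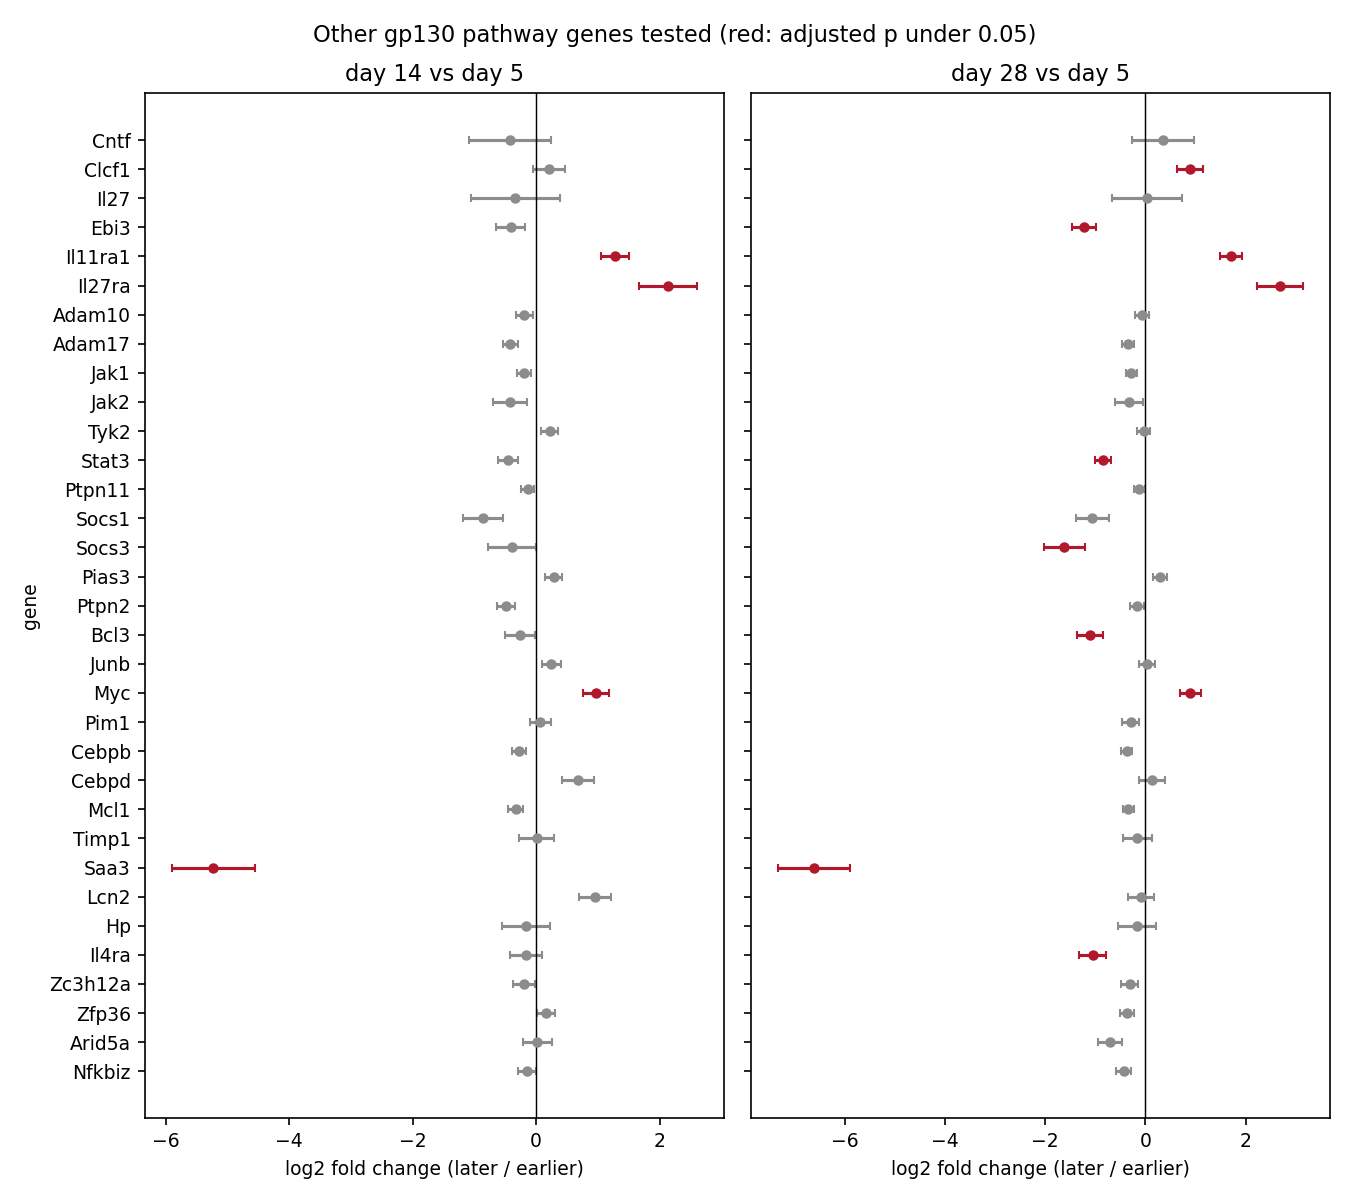
Log2 fold change with 1 SE (edgeR) of the 33 tested genes of the wider gp130 pathway between days 5 and 14 (left) and days 5 and 28 (right), grouped from ligands at the top to regulators of Il6 transcript at the bottom. Red marks an adjusted p under 0.05, with 4 genes on the left and 10 on the right, and Saa3 (-5.23 and -6.61) lies apart from the others.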

How the data were processed

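Macrophages of 7 libraries (3 at day 5, 2 at day 14 and 2 at day 28) were analysed. The authors prepared libraries with the NEBNext Ultra kit after polyA+ selection and sequenced single-end reads. The submitters' processing notes name cutadapt 1.8, TopHat2 2.0.13, Cuffdiff 2.2.1 and mm10. The estimated counts deposited by the authors are fragments per gene, 1.58% of the values above 0 not being whole. The scaled signal deposited by the authors is the same fragments after Cuffdiff's library scaling. The FPKM values deposited by the authors adjust these for transcript length. Sharing of reads between gene copies and use of strand were not given in the sources used here. Quantification failed in 8 values, 0 of them of members, and these were kept.

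After rounding, the quasi-likelihood F test of edgeR 4.0.16 (R 4.3.3) was run on the counts, with TMM scaling, expression filter by time point, 1 fit of all 7 libraries on time point alone, and Benjamini-Hochberg adjustment over the 12858 genes tested, with 0.05 as threshold. P-values weigh a difference between time points against the spread between libraries of the same time point, as estimated in the 1 fit of all 7 libraries. The floor of 3 fragments covers counting error only, and libraries held 18027190 to 35247116 fragments. Alternatives were DESeq2 1.42.0, limma 3.58.1 with a pseudocount of 1 or 0.1, other scalings, no filter, the replicate number as a block, 2 time points only, a threshold of 0.01 and each library left out. The test was tried on simulated counts. Promoter windows came from RefSeq (GRCm38.p6), with 7 of 8 members matched by symbol, and only the bases before the start were used. Coordinates came from GENCODE on GRCm38.

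The 8 members, the pathway list and the marker lists were chosen with earlier results of these data known. The pathway list excludes 2 genes that are not reported here. All members were described in every library. Of the pathway list, the genes called in at least 1 comparison were described, with the others given by counts. For each called member, the 2 genes of highest Pearson's r with a mean of at least 1 FPKM were named. Levels were also ordered by scaled fragments. Python 3.11.15 with pandas 2.3.3, numpy 2.4.6 and scipy 1.17.1 was used, with matplotlib 3.10.9 for plots.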

Additional observations from a re-analysis of the deposited data

How the results depend on the processing

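Values of single genes were recomputed for the tested members in all comparisons, and for pathway genes only in the comparisons where they were called. Of these 560 values, 542 kept their direction, and those that turned were all of members. The pathway values were picked for being called, so their direction could hardly turn. Of the 103 counts recomputed, 69 stayed within 1.5 times the reported value or, where that value was 0, stayed at 0. The reported count was 0 for members and for pathway genes between days 14 and 28, where 0.0622% of all genes passed. A count that stayed at 0 there says little about how stable the calls are. Of 2 members called between days 5 and 14, limma with a pseudocount of 1 or 0.1, the replicate block and a threshold of 0.01 left 0, the 2 time points alone left 1, and leaving out 1 library gave 0 to 3. Of 1 member called between days 5 and 28 (Lifr), the block left 0. The Lifr call was kept without any 1 day 5 or day 14 library. It was lost without day 28 replicate 1 or 2, where the log2 fold change was -0.9973 and -1.119. Without day 28 replicate 2, Il6ra passed in place of Lifr. Of 4 pathway genes called between days 5 and 14, DESeq2 and no filter gave 8, limma 1 and 2, the block and the threshold of 0.01 gave 0, and leaving out 1 library 1 to 11. Between days 14 and 28 the pathway count of 0 became 2 with DESeq2, 4 with no filter and 0 to 9 without 1 library, with 9 without day 14 replicate 2. Between days 5 and 28 the count of 10 became 16 with DESeq2, 5 with the block, 3 at 0.01 and 3 to 15 without 1 library. The lowest of these, 3, was without day 28 replicate 1. A group left with 1 library was assumed to vary like the others. Without 1 library, log2 fold changes that turned sign ranged as follows. For day 14 vs day 5 they were -0.79 to 0.16 for Il6st, -0.46 to 0.12 for Lif and -0.22 to 0.057 for Osm. For day 28 vs day 14 they were -0.17 to 0.77 for Il6st, -0.32 to 0.52 for Lif, -0.26 to 0.015 for Osm and -0.19 to 0.54 for Lifr. For day 28 vs day 5 they were -0.13 to 0.10 for Il6st, -0.45 to 0.39 for Lif and -1.11 to 0.31 for Osmr. Lif between days 5 and 28 also turned to -0.0175 and -0.0228 with limma (pseudocounts of 1 and 0.1), -0.15 with the block and -0.10 with the block and the day 28 numbers swapped. The cause of these changes was not tested. Replicate numbers are shared between days without a stated pairing. Deviations of libraries with the same number correlated at 0.28 (days 5 and 14), -0.14 (days 14 and 28) and -0.0011 (days 5 and 28) over 7556 genes. The swapped numbers, added after the data were seen, gave 2, 0 and 1 members called and 4, 0 and 11 pathway genes. Under the block, the adjusted p was 0.0975 for Il6 and for Lifr between days 5 and 14, and 0.0518 for Lifr between days 5 and 28. By scaled fragments, which are not per length, 6 of 8 members kept their place in the order of mean levels over all libraries, and 5, 6 and 3 in the orders of days 5, 14 and 28. Depth limits Il11 (2 to 8 fragments a library) and Osmr (7 to 39).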
